A study of Oryza sativa with 9 samples.

Results

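The transcripts described here are the 350 transcripts, of 313 loci, that the authors listed as different between spikelets heterozygous at f5 (f5-i/j) and spikelets homozygous for the j allele (f5-j/j). They are every row of the authors' deposited table for this pair of genotypes, out of 832 distinct transcripts in the tables of all 3 pairs. The f5-i/j group and the f5-j/j group each had 3 samples of rice (Oryza sativa) spikelet polyA RNA. Both groups were BC14F2 plants, planted in rows, that differ by label in the alleles at f5, a locus of male sterility in hybrids between rice subspecies. Neither their age nor the stage of the spikelets is given in the labels, and the labels do not tell whether replicate samples are from different plants. The remaining genotype, f5-i/i, also with 3 samples, is cited below only where another deposited table gives its mean for the same transcript. The comparison asks which transcripts differ when the i allele stands beside the j allele rather than the j allele alone.

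Each level below is an authors' mean, the mean that the authors took over the 3 samples of a genotype. Its unit is not stated, the read depth is unknown, and without values of single samples no mean below has an error and no difference was set against the spread between replicates. The list was itself chosen on these means, by a cut on the authors' deposited probability that is read as 0.8 from its lowest listed value. All values are therefore a description of listed transcripts and carry no test. "Higher" and "lower" state the order of the authors' means. A mean of 0.01 is the smallest in these tables and is called the floor here. Folds against the floor are left out, and means just above it make large folds uncertain. In whole spikelets, fewer cells of a type and less RNA per cell cannot be told apart.

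A spikelet holds the anthers and the pistil inside a pair of green hulls. Male sterility arises when pollen or the tapetum, the layer that feeds it, fails to develop. Developing anthers secrete much protein, which is folded in the endoplasmic reticulum (ER) by calnexin, calreticulin and protein disulfide isomerases. Cytosolic proteins are folded by heat shock proteins, whose genes are switched on by heat shock transcription factors. Proteins that fail to fold are tagged with ubiquitin and degraded by the proteasome.

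Of the 350 listed transcripts, 156 were higher and 194 were lower in f5-i/j than f5-j/j, which is 44.6% and 55.4% of the list. These shares are the background for the counts of gene lists below. How many transcripts were tested is unknown here, so the share of all tested transcripts that was listed cannot be given. In 147 transcripts both means were above the floor, and of these 51 (34.7%) were higher and 96 (65.3%) were lower in f5-i/j. The higher ones differed by a median of 6.26-fold and the lower ones by a median of 7.03-fold. The median log2 ratio of these 147 transcripts, f5-i/j over f5-j/j, was -2.20.

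The remaining 203 transcripts, 58.0% of the list, stood at the floor in 1 of the genotypes. At the floor in f5-i/j were 98 transcripts, whose authors' means in f5-j/j ran from 3.50 to 157 with a median of 6.79. At the floor in f5-j/j were 105, whose means in f5-i/j ran from 3.50 to 49.1 with a median of 5.79. A mean of about 3.50 opposite the floor was thus the least that was listed, and transcripts just below it were not analysed here. An f5-i/i mean is known for 77 of the 98 and 70 of the 105, and it too was at the floor for 29 and 33 of them. Among transcripts with both means above the floor, the smallest listed folds were 2.94 for a higher and 2.97 for a lower transcript. Protochlorophyllide reductase (LOC_Os04g58200.1), the light-dependent step of chlorophyll synthesis, averaged 354 in f5-i/j against 121 in f5-j/j.

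**Figure D1:**
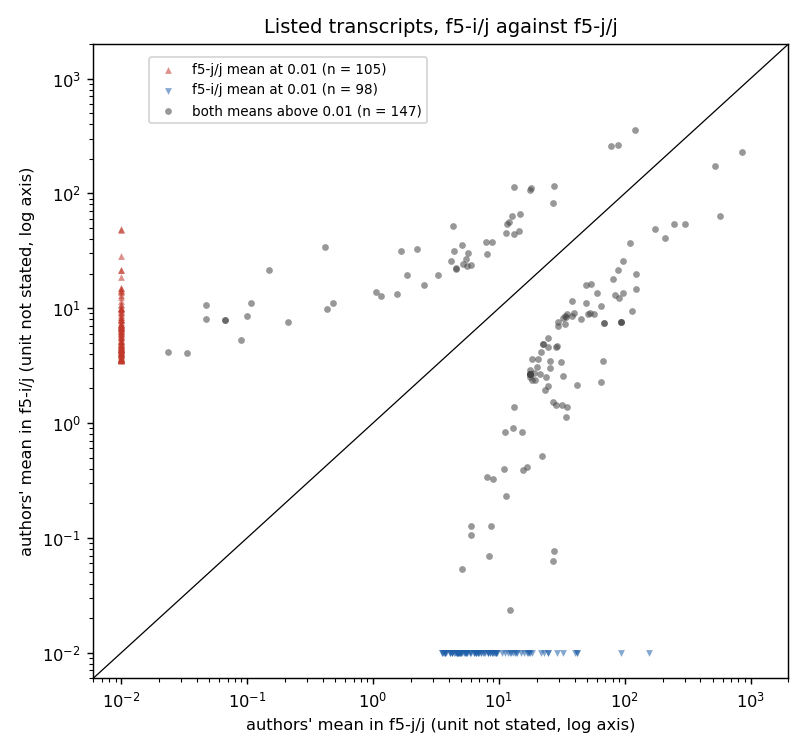
Authors' mean of each listed transcript in f5-i/j (vertical, log axis) and f5-j/j (horizontal, log axis), in a unit not stated, with the diagonal marking equal means. The 98 transcripts at 0.01 in f5-i/j lie along the bottom and the 105 at 0.01 in f5-j/j along the left edge, and more of the other 147 lie below the diagonal (96) than above it (51).

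All 9 transcripts described as heat shock transcription factors, from 5 loci, were lower in f5-i/j, by 4.64-fold to 42.6-fold with a median of 9.47-fold. Models 2 and 3 of LOC_Os10g28340 both averaged 7.45 in f5-i/j against 68.2 in f5-j/j, and models 1 and 5 both averaged 4.86 in f5-i/j against 22.6 in f5-j/j. Model LOC_Os08g43334.1 averaged 0.337 in f5-i/j against 8.06 in f5-j/j by the authors' mean. LOC_Os09g35790.2 averaged 0.913 in f5-i/j against 12.8 in f5-j/j. Models with identical means are 1 measurement, so the 9 transcripts hold 7 separate pairs of means. In f5-i/i the authors' means of models 2 and 1 of LOC_Os10g28340 were 89.2 and 24.6.

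Of 14 transcripts of HSP70, HSP90, HSP20, DnaJ and chaperonin proteins, 12 were lower and 2 were higher in f5-i/j. The 8 with both means above the floor were all lower, by 2.99-fold to 9.0-fold with a median of 5.17-fold. HSP70 (LOC_Os03g16860.1), which binds exposed stretches of unfolded proteins, averaged 63.9 in f5-i/j against 575 in f5-j/j. HSP90 (molecular chaperone HtpG, LOC_Os08g39140.3) averaged 229 in f5-i/j against 858 in f5-j/j. DnaJ proteins hand clients to HSP70. DnaJ B4 (LOC_Os05g48810.1) averaged 20.0 in f5-i/j against 122 in f5-j/j, and DnaJ A2 (LOC_Os03g57340.1) averaged 175 in f5-i/j against 523 in f5-j/j. Small heat shock proteins of the HSP20 family, which hold unfolded proteins in solution, gave 4 of the lower transcripts. One of them, LOC_Os06g14240.1, averaged 2.38 in f5-i/j against 19.3 in f5-j/j, and LOC_Os01g08860.2 was at the floor in f5-i/j against 6.79 in f5-j/j. For f5-i/i the authors' means were 886 for HSP90 and 142 for DnaJ B4, near or above those in f5-j/j. DnaJ B6 (LOC_Os02g54130.3) differed from these, averaging 9.12 in f5-i/j against 39.4 in f5-j/j and having an f5-i/i mean of 7.42.

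The 2 higher transcripts of the group were at the floor in f5-j/j. T-complex protein 1 subunit beta (LOC_Os03g42220.2), part of the chaperonin that folds actin and tubulin, averaged 9.5 in f5-i/j. DnaJ A2 of another locus (LOC_Os04g46390.3) had 10.95 in f5-i/j. By best annotation match alone the group had 11 lower and 2 higher transcripts, since LOC_Os12g06740.2 is described first as a SWI/SNF subunit.

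Co-chaperones outside that list were also lower, and these were chosen after their values were seen. Stress-induced-phosphoprotein 1 joins HSP70 to HSP90, and all 3 listed models of its locus were lower in f5-i/j. The authors' means were 12.3 in f5-i/j against 89.6 in f5-j/j for LOC_Os06g06490.1. For LOC_Os06g06490.2 they were 2.29 in f5-i/j against 64.8 in f5-j/j, and for LOC_Os06g06490.3 they were 0.393 in f5-i/j against 15.5 in f5-j/j. For f5-i/i the authors' means of the 3 models were 97.6, 68.1 and 17, close to those in f5-j/j. The FK506-binding protein 4/5 (LOC_Os08g41390.1), a peptidyl-prolyl isomerase of the HSP90 machinery, was at the floor in f5-i/j, with an average of 18.2 in f5-j/j and an f5-i/i mean of 18.0.

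Transcripts for folding and quality control in the ER were lower in f5-i/j at 9 of 10 transcripts, and the list covered 7 loci. Calnexin (LOC_Os04g32950.4) and calreticulin (LOC_Os07g14270.2), the lectin chaperones of glycoproteins, were at the floor in f5-i/j and averaged 17.6 and 8.53 in f5-j/j. Protein kinase C substrate 80K-H is the beta subunit of glucosidase II, which trims the glycans that these lectins read. Its models LOC_Os01g16970.2 and LOC_Os01g16970.3 had authors' means of 0.01 and 8.04 in f5-i/j against 28.9 and 45.1 in f5-j/j. Protein disulfide-isomerase A6 (LOC_Os03g18200.2) averaged 8.97 in f5-i/j against 50.9 in f5-j/j, a 5.68-fold difference. DnaJ C3 (LOC_Os01g74580.2), an ER co-chaperone that is also among the 14 above, averaged 4.14 in f5-i/j against 21.7 in f5-j/j by the authors' mean.

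Derlin proteins help to draw misfolded protein out of the ER. Both listed models of the Derlin-2/3 locus were at the floor in f5-i/j, with an average of 8.24 (LOC_Os05g09550.2) and 4.78 (LOC_Os05g09550.3) in f5-j/j. FAS-associated factor 2 takes part in the same removal in mammals, and its 2 models went opposite ways. LOC_Os09g35710.1 was the single higher transcript of the list, with an average of 23.2 in f5-i/j against 5.61 in f5-j/j, while LOC_Os09g35710.2 averaged 0.0233 in f5-i/j against 12.4 in f5-j/j.

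Calnexin, calreticulin and Derlin model 3 were also at the floor in f5-i/i. DnaJ C3 averaged 2.89 in f5-i/i and 80K-H model 3 had 3.53, both nearer to the f5-i/j mean than to the f5-j/j mean. For 80K-H model 2 the f5-i/i mean was 8.68, above the floor value of f5-i/j but below the 28.9 of f5-j/j. FAS-associated factor 2 model 2 had 7.52 in f5-i/i, nearer to the f5-j/j mean. An f5-i/i mean exists only for transcripts in another of the authors' deposited tables, and how the ER list and the cytosolic chaperones differ in it was not tested. Among proteins of entry into the ER, 2 transcripts were higher in f5-i/j. The signal recognition particle receptor (LOC_Os08g37444.6), where ribosomes dock, averaged 15.1 in f5-i/j against the floor in f5-j/j. A signal peptidase complex subunit 2 transcript (LOC_Os04g36859.2), chosen after its values were seen, averaged 9.04 in f5-i/j against the floor in f5-j/j by the authors' mean.

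**Figure D2:**
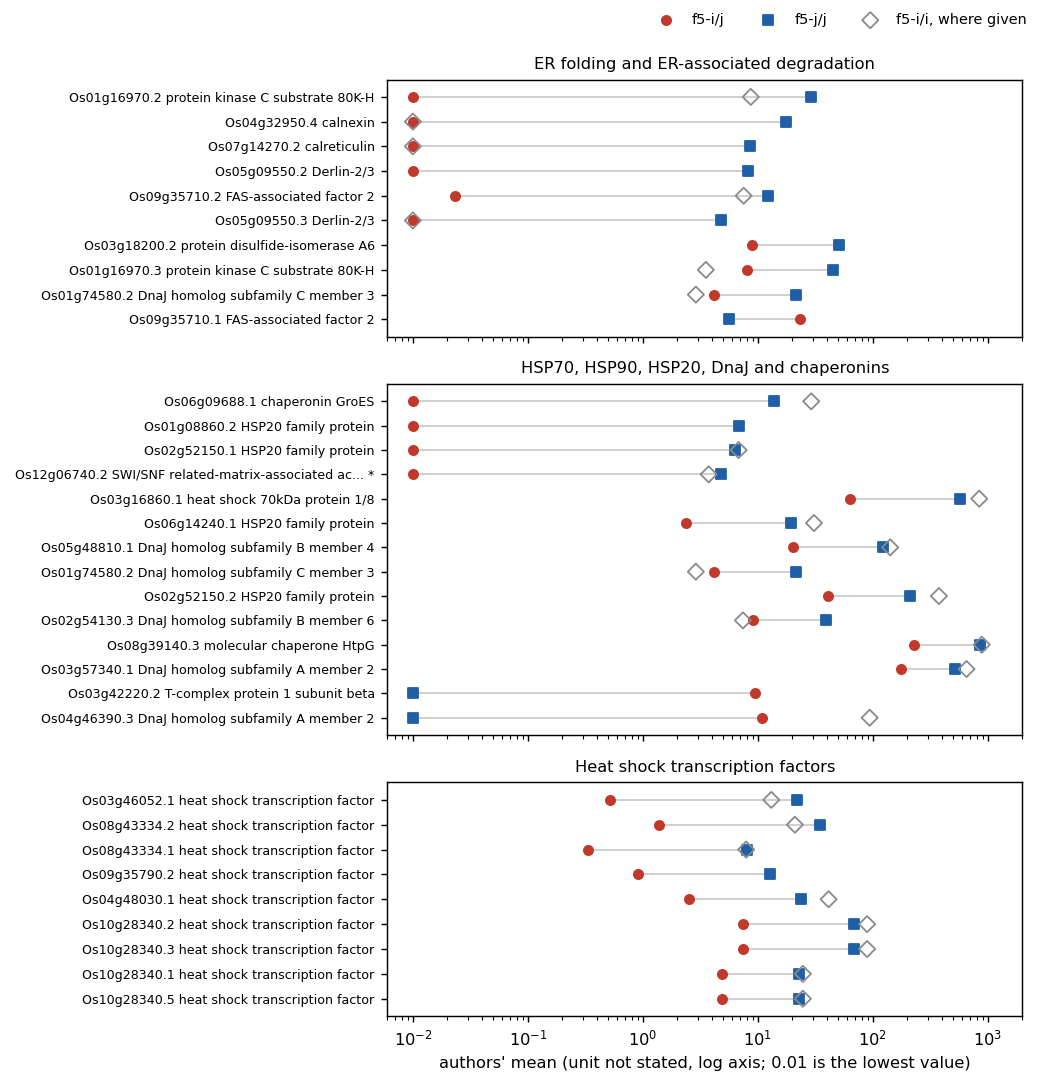
Authors' means (log axis, unit not stated) of the listed transcripts of ER folding, chaperones and heat shock factors in f5-i/j (red circles), f5-j/j (blue squares) and, where another table gives it, f5-i/i (open diamonds), with grey lines joining f5-i/j and f5-j/j. An asterisk marks a match through a lower-ranked description. The f5-i/j points lie left of f5-j/j in all 9 factor transcripts, in 12 of 14 chaperone transcripts and in 9 of 10 ER transcripts.

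Ubiquitin and proteasome transcripts went both ways, with 12 higher and 16 lower in f5-i/j of 28 listed (12 and 12 by best annotation match alone). The authors' mean of the 26S proteasome regulatory subunit T5 (LOC_Os02g56000.2), one of the ATPases that unfold substrates, was 13.8 in f5-i/j against the floor in f5-j/j. Proteasome activator subunit 4 (LOC_Os08g38810.1) averaged 21.4 in f5-i/j against the floor in f5-j/j. LOC_Os11g06980.1, which carries proteasome activator subunit 4 as a lower-ranked description, averaged 3.01 in f5-i/j against 25.6 in f5-j/j.

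Among regulators of ubiquitin ligases, the DET1- and DDB1-associated protein 1 (LOC_Os03g03420.2) averaged 21.3 in f5-i/j against the floor in f5-j/j. COP9 signalosome subunit 2 (LOC_Os01g59130.3), of the complex that switches cullin ligases off, averaged 11.1 in f5-i/j against 0.107 in f5-j/j. Subunit 7 of that complex (LOC_Os07g30840.1), chosen after its values were seen, went the other way. It was at the floor in f5-i/j against 3.59 in f5-j/j. The ligase TRIP12 (LOC_Os05g38830.1) was at 11.6 in f5-i/j against the floor in f5-j/j by the authors' mean. Autocrine motility factor receptor (LOC_Os07g30100.2), a ligase that acts at the ER in mammals, averaged 22.0 in f5-i/j against 4.58 in f5-j/j. Other ligases stood on the opposite side. An E3 ubiquitin-protein ligase (LOC_Os07g43740.1) averaged 1.43 in f5-i/j against 31.5 in f5-j/j, a 22.0-fold difference, and MUL1 (LOC_Os07g45350.5) averaged 3.60 in f5-i/j against 20.3 in f5-j/j. Ubiquitin carboxyl-terminal hydrolase L3 (LOC_Os01g37000.1), which frees ubiquitin, averaged 1.53 in f5-i/j against 26.8 in f5-j/j by the authors' mean.

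Of 11 listed transcripts of proteases and cell death, 8 were lower, among them 7 of KDEL-tailed cysteine endopeptidases from 3 loci. The 5 models of LOC_Os11g14900 carry identical authors' means of 2.69 in f5-i/j against 17.6 in f5-j/j, so the 7 transcripts hold 3 separate pairs of means. Of the 3 higher, HtrA serine peptidase 2 (LOC_Os09g26540.1) had an average of 4.10 in f5-i/j against the floor in f5-j/j. Acylaminoacyl-peptidase (LOC_Os10g28030.1) had 4.12 in f5-i/j against 0.0233 in f5-j/j. Gamma-glutamyl hydrolase model LOC_Os05g44130.2 averaged 45.4 in f5-i/j against 11.4 in f5-j/j, while its model LOC_Os05g44130.1 is among the 8 lower. By loci the list had 2 higher, 3 lower and 1 going both ways.

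Enzymes of sucrose, glycolysis and the TCA cycle gave 5 higher and 8 lower transcripts, and the same step could appear on both sides through different loci. Sucrose synthase, which splits sucrose for use in the cell, was at the floor in f5-i/j for LOC_Os06g09450.8, with an average of 12.6 in f5-j/j, whereas LOC_Os03g28330.5 averaged 47.9 in f5-i/j against the floor in f5-j/j. Enolase LOC_Os10g08550.5 averaged 54.6 in f5-i/j against 300 in f5-j/j, and enolase LOC_Os03g14450.2 was at the floor in f5-i/j against 15.0 in f5-j/j. Phosphoglycerate mutase (LOC_Os05g40420.2), the step before enolase, averaged 8.89 in f5-i/j against 57.0 in f5-j/j. Phosphoglycerate kinase (LOC_Os02g07260.3), an earlier step, averaged 18.5 in f5-i/j against the floor in f5-j/j. Malate dehydrogenase (LOC_Os10g33800.3), whose description gives no compartment, averaged 49.1 in f5-i/j against the floor in f5-j/j. ATP citrate lyase (LOC_Os01g19450.2), a source of cytosolic acetyl-CoA for lipids, averaged 0.0767 in f5-i/j against 27.5 in f5-j/j by the authors' mean. Isocitrate lyase (LOC_Os07g34520.2), of the glyoxylate cycle, averaged 0.0533 in f5-i/j against 5.14 in f5-j/j.

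The list of mitochondrial transcripts, matched by words in the annotation, was short, with 3 higher and 1 lower. Subunits of respiratory complex I stood on both sides. The 1 alpha subcomplex subunit LOC_Os10g42840.2 averaged 28.5 in f5-i/j against the floor in f5-j/j, and the 1 beta subcomplex subunit LOC_Os06g50000.2 was at the floor in f5-i/j against 41.8 in f5-j/j. An ATP:ADP antiporter (LOC_Os02g11740.2), which moves ATP across an organelle membrane, averaged 31.3 in f5-i/j against 1.66 in f5-j/j by the authors' mean. It counts among the 3 higher, but its description does not name the organelle, so whether it is mitochondrial is not known here.

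Photosynthesis and chlorophyll transcripts, the markers of green hull tissue, gave 6 higher and 2 lower of 8 listed. The photosystem II oxygen-evolving enhancer protein (LOC_Os07g36080.1), which steadies the site of water splitting, averaged 35.5 in f5-i/j against 5.08 in f5-j/j. The small chain of the carbon-fixing enzyme ribulose-bisphosphate carboxylase (LOC_Os12g19470.2) averaged 24.2 in f5-i/j against 5.19 in f5-j/j. Chlorophyllide a oxygenase (LOC_Os10g41780.2), which makes chlorophyll b, averaged 4.93 in f5-i/j against the floor in f5-j/j. Geranylgeranyl reductase (LOC_Os05g34700.2), which makes the chlorophyll tail, averaged 7.18 in f5-i/j against the floor in f5-j/j. Of the 2 lower transcripts, one is a model of photosystem I subunit XI, described below. The other, LOC_Os09g04710.2, is described first as a phospholipid:diacylglycerol acyltransferase and matched only by a lower-ranked name. No listed transcript was described as a light-harvesting protein, and the levels of unlisted ones are not known here, so the part of hull tissue in the other lists was not tested.

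Transcripts that make or remove active oxygen gave 7 higher and 6 lower of 13 (7 and 4 by best annotation match alone). Class III peroxidases act in the cell wall, and the 3 listed were 4.76-fold to 13.2-fold higher in f5-i/j. Respiratory burst oxidase (LOC_Os01g25820.2), which produces superoxide at the plasma membrane, averaged 25.8 in f5-i/j against 4.13 in f5-j/j. Catalase (LOC_Os02g02400.2) and thioredoxin 1 (LOC_Os02g35900.1) had authors' means of 5.28 and 5.69 in f5-i/j against the floor in f5-j/j. Monothiol glutaredoxin (LOC_Os01g34620.8) averaged 22.2 in f5-i/j against 4.56 in f5-j/j by the authors' mean. Of the 6 lower transcripts, 2 are CCR4-NOT subunits matched only by a lower-ranked name. The hydrogen peroxide scavenger L-ascorbate peroxidase (LOC_Os07g49400.3) was at the floor in f5-i/j against 41.9 in f5-j/j. Peroxygenase (LOC_Os03g12230.2) averaged 0.230 in f5-i/j against 11.5 in f5-j/j, and alpha-dioxygenase (LOC_Os12g26290.4) averaged 0.127 in f5-i/j against 6.02 in f5-j/j. Glutathione synthase (LOC_Os11g42350.1) was at the floor in f5-i/j against 4.91 in f5-j/j.

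**Figure D3:**
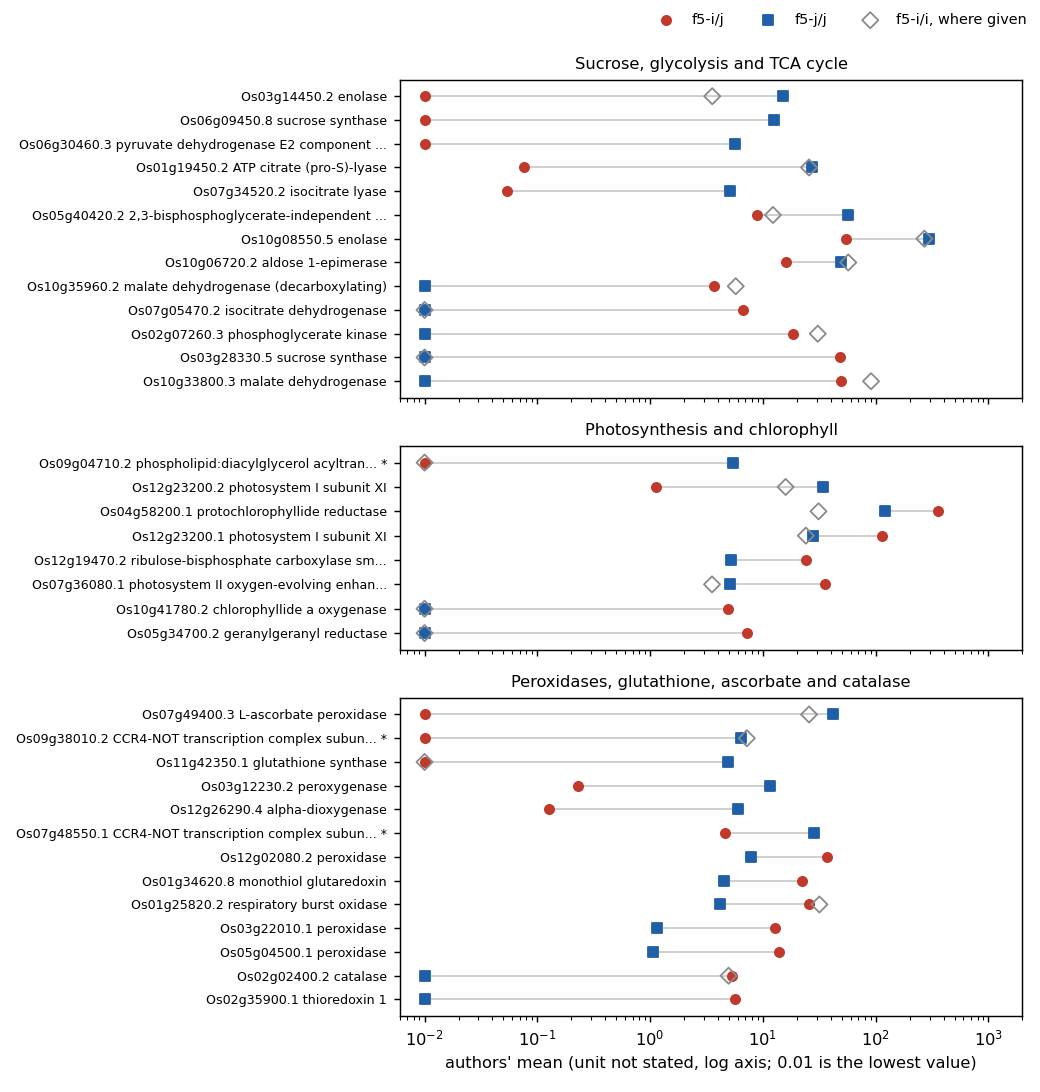
Authors' means (log axis, unit not stated) of listed transcripts of carbon metabolism, photosynthesis and oxidation in f5-i/j (red circles), f5-j/j (blue squares) and, where given, f5-i/i (open diamonds). An asterisk marks a match through a lower-ranked description. The f5-i/j point lies right of f5-j/j in 6 of 8 photosynthesis transcripts, in 7 of 13 oxidation transcripts and in 5 of 13 transcripts of carbon metabolism.

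Transcripts for splicing, RNA decay and RNA helicases were lower in 15 of 19 cases. Spliceosome proteins and their regulators were among them. The U4/U6 protein PRP3 (LOC_Os09g07500.2), pre-mRNA-processing factor 39 (LOC_Os03g04930.1), the arginine/serine-rich factor 4/5/6 (LOC_Os02g03040.4) and polypyrimidine tract-binding protein 2 (LOC_Os08g33830.2) were at the floor in f5-i/j, with averages of 9.22, 8.91, 11.3 and 11.9 in f5-j/j. Above the floor, the ribonucleoprotein A1/A3 (LOC_Os10g17454.3) averaged 2.89 in f5-i/j against 17.6 in f5-j/j. The 5'-3' exoribonuclease 2 (LOC_Os09g07360.2), which degrades RNA in the nucleus, averaged 10.5 in f5-i/j against 65.2 in f5-j/j. All 4 higher transcripts were at the floor in f5-j/j, and they were chosen after their values were seen. They were the splicing factor 7 of the arginine/serine-rich family (LOC_Os06g08840.8), MOV-10 (LOC_Os11g37560.1), DDX21 (LOC_Os03g61220.2) and Musashi (LOC_Os05g45930.2), with averages of 5.47, 6.12, 4.84 and 4.32 in f5-i/j.

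Ribosomal proteins, tRNA synthetases and translation factors gave 8 higher and 10 lower transcripts. Ribosomal protein S25e (LOC_Os08g44480.3) was at the floor in f5-i/j against 157 in f5-j/j. S26e (LOC_Os05g39960.3) was at the floor in f5-i/j against 40.4 in f5-j/j. In the other direction, L18e (LOC_Os04g46830.2) averaged 52.3 in f5-i/j against 4.35 in f5-j/j, and S21e (LOC_Os03g22460.2) averaged 81.9 in f5-i/j against 26.7 in f5-j/j. Translation initiation factor 3 subunit F (LOC_Os05g01450.2) averaged 8.91 in f5-i/j against 34.7 in f5-j/j. The ribosome biogenesis protein ERB1 (LOC_Os07g25440.2) averaged 0.833 in f5-i/j against 15.2 in f5-j/j.

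Transcription factors were lower in 17 of 22 transcripts. The heat shock factors above make up 9 of the 17, and all 5 higher transcripts are other factors, so by transcripts the rest were split more evenly. Of the 5 higher, 3 are models of the auxin response factor locus and 1 is a model of the MYB locus. Both loci are described below and go both ways. By loci the whole list had 1 higher, 10 lower and 2 going both ways, with the 5 heat shock factor loci among the 10. The G-box-binding factor LOC_Os07g10890.2, chosen after its values were seen, averaged 1.92 in f5-i/j against 23.2 in f5-j/j. LHY (LOC_Os06g51260.1), a morning factor of the circadian clock, averaged 13.6 in f5-i/j against 97.6 in f5-j/j, and was the single clock transcript listed. MADS-box proteins specify floral organs. The models LOC_Os02g49840.2 and LOC_Os02g49840.4 had authors' means of 0.413 and 0.01 in f5-i/j against 16.6 and 4.64 in f5-j/j. EREBP-like factor LOC_Os09g35020.1, of the ethylene response family, was at the floor in f5-i/j against 5.85 in f5-j/j. A homeobox transcript (LOC_Os08g19650.1) averaged 6.29 in f5-i/j against the floor in f5-j/j. The putative transcription factor LOC_Os06g39240, counted among general transcription, was lower in both models, with averages of 14.6 and 12.9 in f5-i/j against 122 and 84.1 in f5-j/j.

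Hormone transcripts divided into 4 higher and 5 lower, and 4 of the 9 belong to a single auxin response factor locus, described below. Jasmonate, which controls anther opening and pollen maturation, touched 3 listed transcripts. The jasmonic acid-amino synthetase (LOC_Os05g50890.3), which makes the active conjugate, averaged 7.65 in f5-i/j against 0.210 in f5-j/j. Jasmonate O-methyltransferase (LOC_Os06g13560.4) and MYC2 (LOC_Os03g04310.1), a transcription factor of the jasmonate response, were at the floor in f5-i/j and at 5.90 and 3.67 in f5-j/j. The ethylene-forming aminocyclopropanecarboxylate oxidase (LOC_Os09g07020.2) was also at the floor in f5-i/j, with an average of 7.46 in f5-j/j.

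Vesicle traffic and nuclear transport were nearly even, with 10 higher and 11 lower transcripts (10 and 8 by best annotation match alone). Rab GTPases direct vesicles. Rab-8A (LOC_Os07g13530.2) averaged 107 in f5-i/j against 17.6 in f5-j/j. Dynamin GTPase (LOC_Os05g48240.4), which pinches membranes, averaged 12.9 in f5-i/j against the floor in f5-j/j. The charged multivesicular body protein 2A (LOC_Os07g13270.2), of the ESCRT-III sorting complex, averaged 30.1 in f5-i/j against 5.69 in f5-j/j. By contrast VPS37 (LOC_Os03g37580.4), of ESCRT-I, averaged 2.71 in f5-i/j against 19.0 in f5-j/j. The delta subunit of coatomer (LOC_Os05g24601.3), which coats vesicles returning to the ER, averaged 18.1 in f5-i/j against 80.4 in f5-j/j. Exocyst component 7 (LOC_Os05g39610.2), which tethers secretory vesicles, averaged 3.09 in f5-i/j against 20.0 in f5-j/j. Exportin-5 (LOC_Os11g31770.3) averaged 0.127 in f5-i/j against 8.64 in f5-j/j, and importin-5 (LOC_Os03g49420.2) averaged 5.79 in f5-i/j against the floor in f5-j/j.

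Transporters gave 5 higher and 7 lower transcripts (5 and 3 by best annotation match alone). A transporter described first as a myo-inositol carrier of the SP family (LOC_Os10g39440.2) had the largest ratio among them, with an average of 21.5 in f5-i/j against 0.150 in f5-j/j. The proteolipid subunit of the vacuolar proton pump (LOC_Os05g01560.2) averaged 1.37 in f5-i/j against 13.2 in f5-j/j, a 9.66-fold difference. The nucleotide-sensitive chloride channel 1A (LOC_Os10g08879.2) was at the floor in f5-i/j against 17.3 in f5-j/j by the authors' mean. LOC_Os03g05750.1, annotated to cation transport, averaged 25.9 in f5-i/j against 97.3 in f5-j/j.

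Amino acid metabolism had 7 higher and 4 lower of 11 transcripts, or 5 higher and 4 lower by loci. In 10 of them 1 genotype was at the floor, and the 1 transcript above it in both genotypes was lower. Both asparagine synthase models of LOC_Os03g18130 had the same averages, 3.68 in f5-i/j against the floor in f5-j/j. In tryptophan synthesis, anthranilate synthase component I (LOC_Os03g15780.1), the entry step, averaged 8.04 in f5-i/j against the floor in f5-j/j. The beta chain of tryptophan synthase, the last step, had 3.53 (LOC_Os06g42560.2) and 4.45 (LOC_Os06g42560.3) in f5-i/j against the floor in f5-j/j. Anthranilate phosphoribosyltransferase (LOC_Os03g03450.2), between them, was at the floor in f5-i/j against 7.21 in f5-j/j. Glutamate decarboxylase (LOC_Os08g36320.3), which makes GABA, averaged 4.40 in f5-i/j against the floor in f5-j/j by the authors' mean. Alpha-aminoadipic semialdehyde synthase (LOC_Os02g54254.2), of lysine breakdown, was the single member above the floor in both genotypes, with an average of 0.40 in f5-i/j against 10.9 in f5-j/j.

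Lipid transcripts were 5 higher and 8 lower (2 and 6 by best annotation match alone). Long-chain acyl-CoA synthetases activate fatty acids for the cuticle and the pollen coat, and all 3 listed loci were lower. LOC_Os05g04170.4 averaged 9.48 in f5-i/j against 114 in f5-j/j, LOC_Os11g35400.2 averaged 5.48 in f5-i/j against 24.5 in f5-j/j, and LOC_Os12g04990.3 was at the floor in f5-i/j against 7.64 in f5-j/j. A phospholipase-type enzyme for N-acyl-phosphatidylethanolamine (LOC_Os02g04650.1) averaged 49.4 in f5-i/j against 173 in f5-j/j. LOC_Os11g02400.1, annotated to lipid localization, averaged 23.8 in f5-i/j against 5.96 in f5-j/j.

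Cell wall transcripts were 2 higher and 6 lower (2 and 5 by best annotation match alone), and MYC2 above (LOC_Os03g04310.1) is 1 of the 6 lower. UDP-glucuronate decarboxylase (LOC_Os03g16980.1 and LOC_Os03g16980.2), which makes UDP-xylose for wall polymers, was at the floor in f5-i/j against 24.5 in f5-j/j in both models. An endo-1,4-beta-xylanase (LOC_Os03g14010.1) averaged 2.37 in f5-i/j against 18.4 in f5-j/j. Endo-1,3-beta-glucosidases cut callose-type glucans, the wall around young microspores. LOC_Os11g47820.2 and LOC_Os09g32550.1 of that kind were at the floor in f5-i/j and at 7.72 and 4.63 in f5-j/j. A cellulose synthase A (LOC_Os07g24190.3) and a pectinesterase (LOC_Os01g21034.2) were at 12.6 and 4.78 in f5-i/j against the floor in f5-j/j by the authors' mean.

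Chromatin transcripts were 3 higher and 5 lower. The lysine-specific demethylase 3 (LOC_Os01g35050.4) averaged 3.39 in f5-i/j against 31.4 in f5-j/j, and a SET and MYND domain protein (LOC_Os08g08970.1) averaged 3.49 in f5-i/j against 66.6 in f5-j/j. COMPASS, a complex that methylates histone H3, was represented on both sides by its component SWD3. LOC_Os08g38880.2 was at the floor in f5-i/j against 15.7 in f5-j/j, while LOC_Os02g19210.2 was at 3.98 in f5-i/j against the floor in f5-j/j. Of the cell cycle and cytoskeleton list, with 4 higher and 5 lower, the targeting protein for Xklp2 (LOC_Os09g13650.1), a spindle protein, averaged 113 in f5-i/j against 13.3 in f5-j/j.

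Kinases and phosphatases were 4 higher and 5 lower (4 and 4 by best annotation match alone), and the co-chaperone model LOC_Os06g06490.1 is 1 of the 5 lower. The regulatory gamma subunit of the AMP-activated kinase (LOC_Os04g32880.4), an energy sensor, averaged 29.7 in f5-i/j against 7.99 in f5-j/j. A MAP kinase 1/3 transcript (LOC_Os11g17080.3) averaged 4.45 in f5-i/j against the floor in f5-j/j. WNK kinase (LOC_Os01g64560.1) averaged 0.070 in f5-i/j against 8.34 in f5-j/j. The chitin elicitor receptor kinase 1 (LOC_Os08g42580.4), which senses fungal chitin, averaged 13.6 in f5-i/j against 59.7 in f5-j/j.

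Defence and receptor kinase transcripts were 1 higher and 4 lower (0 and 3 by best annotation match alone). The stress-induced-phosphoprotein 1 model LOC_Os06g06490.1, given above as a co-chaperone, is 1 of the 4 lower. LOC_Os03g46440.3 and LOC_Os01g72020.2, both described as regulatory protein NPR1, were at the floor in f5-i/j, with 4.71 and 4.54 in f5-j/j. NPR1 is a salicylic acid receptor, but the description does not tell whether either locus is that receptor or a relative. Both listed cytochrome P450 transcripts were higher, with LOC_Os04g48210.1 averaging 9.81 in f5-i/j against 0.433 in f5-j/j. Phenylpropanoid, flavonoid and terpene transcripts were 2 higher and 3 lower. Chalcone isomerase (LOC_Os12g02370.2), an early step of flavonoid synthesis, averaged 65.6 in f5-i/j against 14.7 in f5-j/j. Nucleotide and cofactor metabolism had 4 higher and 3 lower transcripts, DNA replication and repair 3 and 2, and general transcription 5 and 4. The 3 higher ones of DNA replication and repair are models of 1 DNA primase locus, LOC_Os08g41010, and count in general transcription too. By loci DNA replication and repair had 1 higher and 2 lower, and by best annotation match general transcription had 1 higher and 3 lower.

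Of 27 loci with several listed models, 8 had models going both ways. The auxin response factor locus LOC_Os12g29520 had authors' means in f5-i/j of 7.84 for models 1 and 2, 7.99 for model 3 and the floor for model 4. In f5-j/j the same models had 0.0667, 0.0667, the floor and 21.5. The sum over these models was 23.7 in f5-i/j against 21.6 in f5-j/j, a ratio of 1.10. The MYB locus LOC_Os01g40670 behaved alike, with averages of 47.1 (model 1) and 2.59 (model 2) in f5-i/j against 14.5 and 32.2 in f5-j/j, and sums of 49.6 in f5-i/j against 46.7 in f5-j/j. Of the 2 listed models of Rab-2A (LOC_Os04g39440), model 3 averaged 8.41 in f5-i/j against the floor in f5-j/j. Model 1 was at the floor in f5-i/j against 5.39 in f5-j/j.

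Sums differed more at other loci of this kind. Photosystem I subunit XI (LOC_Os12g23200) summed to 116 in f5-i/j against 61.7 in f5-j/j, with averages of 115 (model 1) and 1.12 (model 2) in f5-i/j against 27.6 and 34.1 in f5-j/j. The 3-ketoacyl-CoA synthase locus LOC_Os03g08360, of fatty acid elongation, summed to 25.3 in f5-i/j against 54.2 in f5-j/j. Gamma-glutamyl hydrolase (LOC_Os05g44130), which trims folates, summed to 48.9 in f5-i/j against 36.7 in f5-j/j, and FAS-associated factor 2 summed to 23.3 in f5-i/j against 18.0 in f5-j/j. Over the 8 loci the ratio of sums, f5-i/j over f5-j/j, ran from 0.467 to 1.88. Models that were not listed are missing from these sums, and the division of reads between models of a locus is an estimate of the authors' counting.

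**Figure D4:**
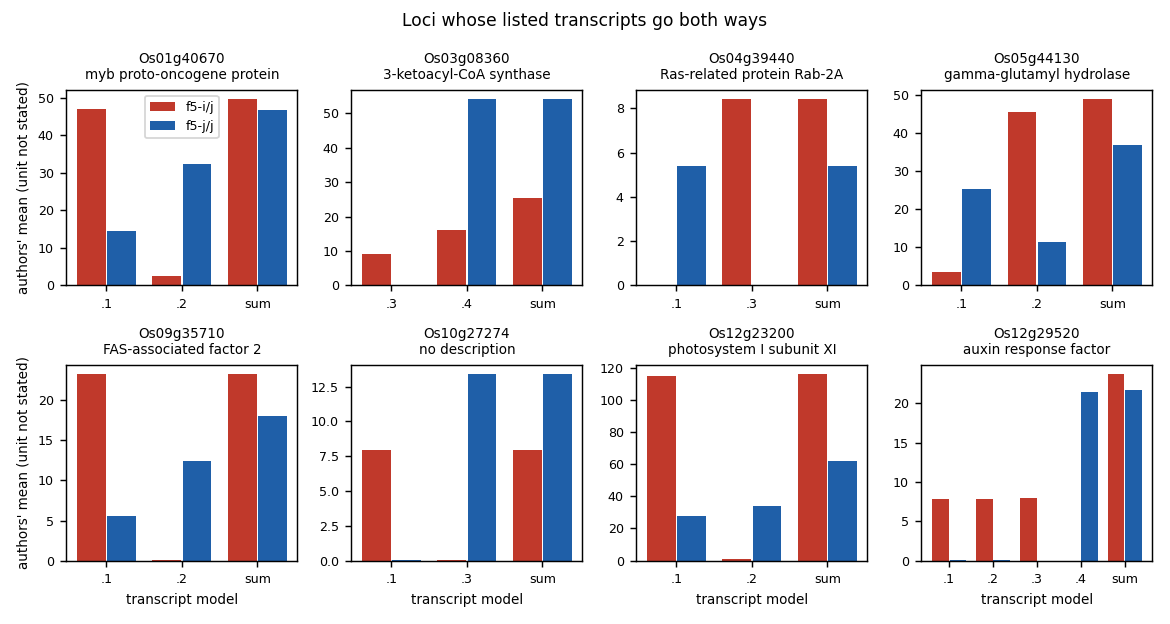
Authors' means (linear axis, unit not stated) of the listed transcript models of the 8 loci whose models go both ways, and their sum, in f5-i/j (red) and f5-j/j (blue). The tall model differs between the genotypes in each locus except 3-ketoacyl-CoA synthase, while the sums of the auxin response factor (23.7 and 21.6) and MYB (49.6 and 46.7) loci are close.

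Some transcripts with large differences of means had no KEGG description. LOC_Os11g44810.1 averaged 261 in f5-i/j against 78.0 in f5-j/j. LOC_Os02g56900.1 averaged 53.7 in f5-i/j against 246 in f5-j/j, and LOC_Os02g55710.1 was at the floor in f5-i/j against 92.9 in f5-j/j. LOC_Os07g06620.1, annotated to nucleic acid binding and a developmental process of reproduction, averaged 261 in f5-i/j against 88.4 in f5-j/j. LOC_Os03g11600.1, annotated to meristem maintenance and floral organ development and chosen after its values were seen, was at the floor in f5-i/j against 13.7 in f5-j/j. In all 45 of the 350 transcripts carried no annotation of any kind.

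Of 15 tapetum and pollen wall loci searched by identifier, 1 was listed. This was LOC_Os11g37280.1, entered in that list as C6, a tapetal lipid transfer protein, and the authors' file annotates it only to cytoplasmic vesicles. It was higher in f5-i/j, with an average of 34.1 against 0.413 in f5-j/j, an 82.4-fold difference. Its f5-i/i mean was 33.8, near the f5-i/j mean, so the f5-j/j mean was the one that stood apart. No seed storage or transposon transcript was found by description. The listed loci lay on all 12 chromosomes, from 15 on chromosome 11 to 42 on chromosome 3. On chromosome 6, 7 loci were higher and 17 lower, and on chromosome 4, 12 were higher and 8 lower.

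**Figure D5:**
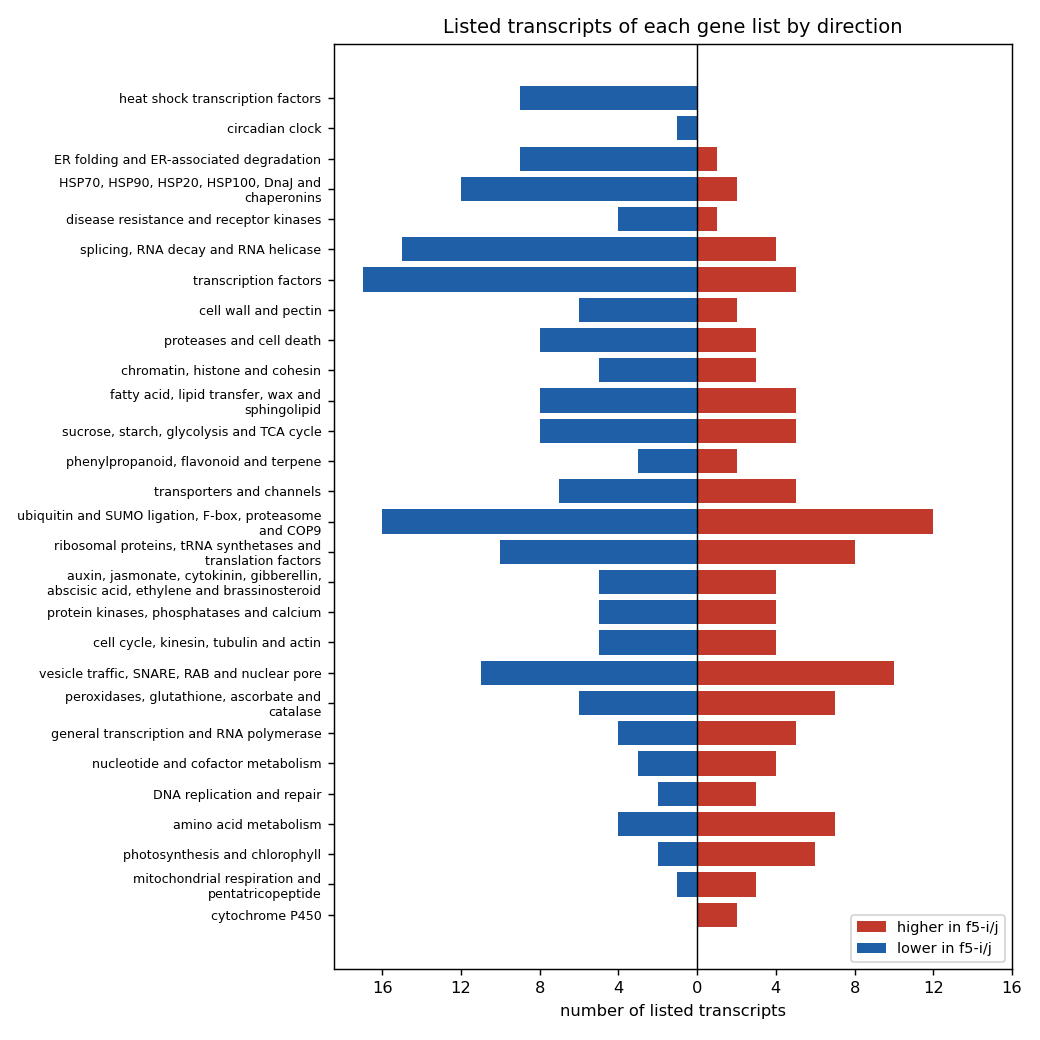
Number of listed transcripts higher (red, right) and lower (blue, left) in f5-i/j than f5-j/j for each of the 28 gene lists with a member. Heat shock factors (0 higher, 9 lower), ER folding (1 and 9) and chaperones (2 and 12) lie near the top, and photosynthesis (6 and 2) and amino acid metabolism (7 and 4) near the bottom, against 156 higher and 194 lower over the whole list.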

How the data were processed

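PolyA RNA of 9 spikelet samples, 3 for each genotype, was sequenced, per the labels' protocols. The submitters' processing notes list the tools BWA, Bowtie and RSEM with no version or role. Not given in the sources used here were genome build, annotation and normalization. The deposited levels are signal means per genotype, per the file headers, in a unit that is not stated. The deposited log2 ratio was recomputed from the means and was the same. The deposited probability is a score from 0.8 to 1, per the file headers, and is not a p-value. Lengths are coding lengths (100% multiples of 3).

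Column names were tied to genotypes because each occurs in exactly the tables that name that genotype. Counts, medians and sums were computed in Python 3.11.15 with pandas 2.3.3 and tested on simulated data. The 30 gene lists matched words in the annotation text, and a second count used the best-ranked KEGG name alone. KEGG names were present for 269 of 350 transcripts. The reference gene table holds no identifiers of the kind used here, so no sequence or coordinate is given.

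Members and lists were chosen with earlier results of these data known. Transcripts were named from among the following, unless said otherwise. From lists of up to 12 any member could be named. For longer lists these were the 8 with the largest log2 ratio above the lowest value and the 5 highest opposite it. Over all transcripts these were the 10 largest of each kind per direction and all models of loci going both ways.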

Additional observations from a re-analysis of the deposited data

How the results depend on the processing

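No replicate could be left out and no count model could be fitted, since the files hold means of genotypes. No paired analysis was possible because the columns carry no replicate numbers. The 156 higher and 194 lower transcripts became 51 and 96 with both means above 0.01, and 46 and 53 at a probability of at least 0.9, since fewer transcripts were counted. The counts stayed within 1.5 times at an absolute log2 ratio of at least 2, at a larger mean of at least 5, with loci as units and, added after seeing the data, with identical models counted once. The median log2 ratio kept its sign and stayed within 1.5 times with 1 or 0.1 added and with both means at least 1. The number of lists with more lower than higher members, 20, stayed within 1.5 times.

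For single lists, higher minus lower members changed sign with both means above 0.01 in amino acid metabolism (-1), nucleotide metabolism (-1), DNA replication and repair (-1), general transcription (-3) and hormones (3). With loci as units it did so in DNA replication and repair (-1). By best annotation match alone, added after seeing the data, it did so in general transcription (-2), transport (2) and vesicle traffic (2). Further lists moved beyond the limit used for the counts above without reversing sign. With both means above 0.01 these were 14 lists, and 9 stayed within that limit. The difference shrank in ER folding (-8 to -3) and splicing and RNA decay (-11 to -5) and grew in ubiquitin (-4 to -7). With loci as units 5 lists moved and 22 stayed. Among the 5 were heat shock factors (-9 to -5), proteases (-5 to -1) and hormones (-1 to -3). By best annotation match 7 moved and 18 stayed. Depth is unknown, so how far low means are limited by counting cannot be told.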

Other observations

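GO terms, whose text the gene lists also searched, describe the same listed transcripts, and models of 1 locus count separately in them. The terms named next are among the more one-sided of those with at least 5 transcripts. Larger terms were nearer to the 156 higher and 194 lower of the whole list. Intracellular membrane-bounded organelle had 31 higher and 36 lower, and metabolic process 7 higher and 9 lower. DNA binding was attached to 8 transcripts, 0 of them higher and 8 lower in f5-i/j. Endopeptidase activity had 0 higher and 7 lower, and all 7 are the KDEL-tailed endopeptidases above. Response to stimulus had 0 higher and 9 lower, whereas response to stress had 5 higher and 2 lower. Iron ion binding had 5 higher and 1 lower. These terms overlap the lists, and no test was made on them.

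Among transcripts with both means above 0.01, the higher ones had a median coding length of 654 bases and the lower ones 1083 bases. For transcripts at 0.01 the median was 1002 bases where that was in f5-i/j and 1086 bases where it was in f5-j/j.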
